A study of Mus musculus with 119 samples.

Results

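The colony-stimulating factors are the cytokines Csf1 (M-CSF), Csf2 (GM-CSF) and Csf3 (G-CSF), and their mRNAs were followed in mouse bone marrow-derived macrophages (BMDMs) given LPS. The 3 genes were taken by symbol from the 18098 genes with a value in the RNA-seq data, and each of them has a value in every library. The study asked which LPS-induced genes depend on the kinase TPL-2, which LPS activates through TLR4 and which turns on the MAP kinases ERK1/2 through MKK1/2, and whether the ERK1/2 targets ELK1 and ELK4, transcription factors of the ternary complex factor family, and RSK kinases act below it. All cells were of the strain C57BL/6(NIMR), the animals' age is not stated in the labels or the study's methods, and all were grown from bone marrow in L-cell conditioned medium, which supplies CSF1 protein, before a night in low serum without it.

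WT cells gave 6 libraries each without LPS and after 0.5 or 1 h with 100 ng/ml LPS, and 4 after 2 h. Map3k8[D270A] cells, in which the Map3k8 gene encodes TPL-2 without kinase activity, gave 6 libraries at each of these 4 times. Elk1-/-Elk4-/- cells, which lack both transcription factors, gave 4 at each time. Nfkb1[SS/AA] cells, which carry a form of the NF-kB precursor p105 with serines changed to alanines so that LPS cannot release TPL-2 from it, gave 6 at each time up to 1 h. WT cells treated with 0.1 µM PD0325901, an inhibitor of MKK1/2, gave 3 libraries each after 10, 40 and 70 min of inhibitor alone and 6 each after 0.5 or 1 h of LPS begun 10 min into the treatment, and the solvent DMSO alone for 10 min gave 3. WT cells treated with 2 µM RSKi47, an inhibitor of RSK, gave 4 libraries without LPS, 3 at 0.5 h and 4 each at 1 h and 2 h. There were no libraries of DMSO with LPS, and the WT libraries belonged to the Map3k8[D270A] experiment. For the other genotypes and both inhibitors, a difference from WT and a difference between experiments therefore cannot be told apart. The same holds where they are compared with Map3k8[D270A] cells or with each other.

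CSF1 acts through the receptor kinase CSF1R and keeps macrophages alive and dividing, and macrophages grown in its presence go on to make some of it themselves. CSF2 acts through a receptor of an alpha chain and a shared beta chain that signals by JAK2 and STAT5, and CSF3 acts through its own receptor, chiefly on neutrophils and their precursors. Resting macrophages make little CSF2 or CSF3, both genes are switched on by inflammatory signals, and their mRNAs carry AU-rich elements in the 3′ untranslated region through which proteins such as tristetraprolin (Zfp36) shorten the life of an mRNA.

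Expression is given on the log2 scale of the deposited values, which are normalized across libraries and not for gene length, so levels of different genes are not compared. Sequencing depth per library is unknown, and the spread between libraries sets the precision. The transformation behind the values is named neither in the labels nor in the study's methods, and if the differences were natural logarithms each would be larger by a factor of 1.44. Such a transformation may also draw values together at low levels, so folds are those of the deposited scale and may understate the change of Csf2 and Csf3, which are low without LPS. Differences were tested with limma and called at an adjusted p below 0.05 over all genes tested. The labels number the replicates without saying that they are separate cultures or animals, so the p values measure the spread between these libraries. Csf1 and Csf2 entered those fits, which took genes reaching a linear value of 10 in 4 of the 62 libraries of WT, Map3k8[D270A] and Elk1-/-Elk4-/- cells, or in 3 of all libraries for the other comparisons. Csf3 reached it in 0 libraries, its highest value being 1.80. Its adjusted p values therefore come from a fit of all 18098 genes, and its differences lie at the foot of the scale. Csf2 in WT cells without LPS also lay low, at linear values of 8.87 to 10.5, near that minimum of 10. All 7 macrophage markers reached a linear value of 10 in every library and the markers of B and NK cells in none. In the double mutant, Elk1 lay between 6.17 and 6.59 in all libraries and Elk4 between 5.51 and 5.88, below every WT library (9.04 to 9.49 and 7.57 to 8.49), whereas Map3k8 and Nfkb1 carry point mutations that the amount of mRNA cannot check. No libraries held identical values. The Nfkb1[SS/AA] library of replicate 2 at 1 h and the RSKi47 library of replicate 4 at 2 h lay farthest from their groups over all genes, with root mean square deviations of 0.304 and 0.291 against a median of 0.149.

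In the mm10 assembly (GRCm38), Csf1 lies on the minus strand at chr3:107741048-107760469, Csf2 on the minus strand at chr11:54247271-54249667 and Csf3 on the plus strand at chr11:98701263-98703629. Csf2 is overlapped by the antisense gene Gm12223 on the plus strand (chr11:54247600-54254495). The study's libraries are described as strand specific. The genes differ in the AU-rich core ATTTA of their 3′ untranslated regions. Csf2 holds 9 copies in 317 bases, Csf3 holds 6 in 669, and Csf1 holds 4 in 2111. Among annotated 3′ untranslated regions within 10% of the same length, as many copies occurred in 1 of 788 for Csf2, which is Csf2 itself (0.127%), in 16 of 1056 for Csf3 (1.52%) and in 645 of 1338 for Csf1 (48.2%). The densest stretch of 30 bases in each is shown because the copies overlap in a run in Csf2 and are spaced in the others. They read from 5′ to 3′ on the gene's strand with the ATTTA copies in capitals, at chr3:107741103-107741132 for Csf1, chr11:54247325-54247354 for Csf2 and chr11:98702988-98703017 for Csf3.
Csf1: taaggtcATTTAaatatctATTTAaaaaat
Csf2: taaatATTTATTTATTTATTTATTTAtttt
Csf3: gtttATTTAtctctATTTAatATTTAtgca

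The promoter windows of RefSeq (GRCm38.p6), 250 bases before to 50 after the start, matched 2 of the 3 genes and are shown because p105 is a member of the NF-kB family. The capitals mark matches to motifs of NF-kB (GGG and CC with any 5 bases between) and of C/EBP (TTGCNNAA) on either strand. The window of Csf1, chr3:107760420-107760719 on the minus strand, holds 5 NF-kB matches, of which 2 overlap. The window of Csf2, chr11:54249850-54250149 on the minus strand, belongs to a RefSeq start upstream of the GENCODE one and covers the bases 183 to 482 before the latter; it holds 1 NF-kB match and 1 C/EBP match.
Csf1: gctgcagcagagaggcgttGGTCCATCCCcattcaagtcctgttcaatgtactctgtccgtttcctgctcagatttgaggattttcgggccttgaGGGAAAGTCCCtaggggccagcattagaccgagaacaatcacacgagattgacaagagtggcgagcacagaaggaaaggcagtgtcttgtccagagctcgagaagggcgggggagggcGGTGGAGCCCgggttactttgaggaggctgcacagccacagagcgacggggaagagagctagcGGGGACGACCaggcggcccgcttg
Csf2: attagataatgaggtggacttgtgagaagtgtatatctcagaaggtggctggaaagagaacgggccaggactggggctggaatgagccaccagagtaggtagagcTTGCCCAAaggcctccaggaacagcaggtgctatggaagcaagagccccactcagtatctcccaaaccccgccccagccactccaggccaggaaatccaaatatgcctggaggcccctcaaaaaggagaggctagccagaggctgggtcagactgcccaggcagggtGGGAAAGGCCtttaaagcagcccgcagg

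An NF-kB match occurred in 50.8% of the 32851 windows and a C/EBP match in 10.8%, so neither is particular to these genes. Neither window held the AP-1 motif TGANTCA, found in 7.81% of windows, or the CREB/ATF motif TGACGNCA, found in 3.21%. The same was true of the ETS letters CCGGAAG, which 8.86% of windows hold. It was also true of the EGR motif GCGNGGGCG, at 5.55%, the TATA box letters TATAAA, at 13.6%, and the SRF CArG box, at 1.63%. The Csf2 window stops upstream of the GENCODE start, so the bases next to that start were not searched for any of these motifs.

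In WT cells the 3 factors followed different courses. Csf2 rose 41.9-fold to a peak at 1 h and had fallen by 2 h, Csf1 rose 6.35-fold by 1 h and 8.18-fold by 2 h, and Csf3 appeared at 1 h and stayed near the bottom of the scale. Csf2 without LPS ran from 3.15 through a median of 3.32 to 3.39. At 0.5 h its lowest, median and highest values were 3.49, 4.09 and 5.16, at 1 h they were 8.03, 8.75 and 9.31, and the 4 libraries at 2 h gave 6.27, 5.94, 5.59 and 6.55. Every library with LPS lay above every library without it, and no library at 2 h reached the lowest at 1 h. The difference from cells without LPS was 0.91 (SE 0.20, adjusted p = 7.38e-04, 1.88-fold) at 0.5 h, 5.39 (SE 0.20, adjusted p = 2.08e-30) at 1 h and 2.78 (SE 0.22, adjusted p = 1.80e-16, 6.88-fold) at 2 h. The interval of the fold at 1 h was 31.7 to 55.3. At 1 h this was the 4th highest difference of 11884 genes, and the step from 0.5 to 1 h, 4.47 or 22.2-fold, was the highest of all, where 40.3% of genes were called. That step was 5.61 in replicates 4 to 6 and 3.33 in replicates 7 to 9. From 1 to 2 h Csf2 fell by 2.60 (adjusted p = 3.64e-15), to a level 6.08-fold lower, the 6th lowest difference among 65.3% of genes called. This change was -3.28 in replicates 4 to 6 and -1.62 in replicates 7 to 9, of which only replicate 7 was measured at 2 h.

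**Figure D1:**
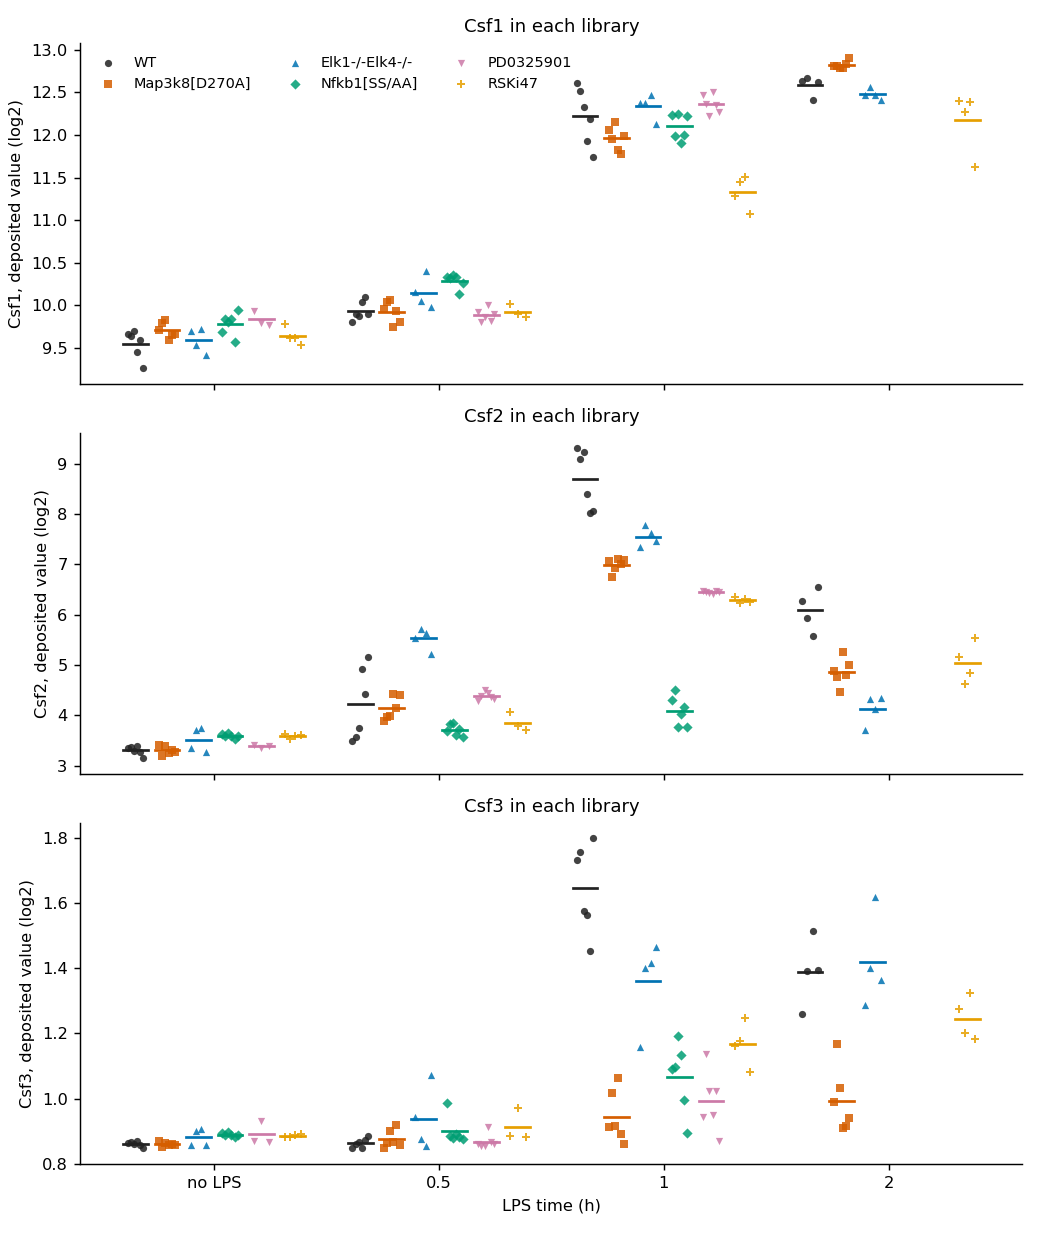
Expression of Csf1, Csf2 and Csf3 (deposited values, log2 scale, each panel with its own axis) against time of LPS in h for each library, with points coloured by genotype or inhibitor and a short horizontal line at each group mean; for PD0325901 the points without LPS are of 10 min of inhibitor alone. Csf2 in WT cells peaked at 1 h, between 8.03 and 9.31, while Csf1 lay between 12.42 and 12.67 at 2 h and Csf3 reached at most 1.80.

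Csf1 was present in every library without LPS, from 9.26 to 9.70 with a median of 9.62. Its lowest, median and highest values were 9.80, 9.89 and 10.09 at 0.5 h and 11.74, 12.26 and 12.61 at 1 h, and at 2 h the libraries gave 12.63, 12.67, 12.42 and 12.62. The 3 groups with LPS lay wholly above the group without it. The difference was 0.38 (SE 0.09, adjusted p = 1.92e-03, 1.30-fold) at 0.5 h, 2.67 (SE 0.09, adjusted p = 2.88e-32) at 1 h and 3.03 (SE 0.10, adjusted p = 6.68e-33) at 2 h, with intervals of the fold of 5.60 to 7.20 and 7.11 to 9.42 at the later times. Csf1 was 87th highest of 11884 genes at 1 h and 138th at 2 h, and it differed by a further 0.37 (adjusted p = 0.00137) between 1 and 2 h, a step that was 0.09 (adjusted p = 0.444) in replicates 4 to 6 alone. Both genes were called at each time, among 11.6%, 46.8% and 71.5% of all genes, and for 0.5 h the number of genes called went from 1382 to 2602 when libraries were paired by replicate number.

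Csf3 lay between 0.85 and 0.89 in all 12 WT libraries without LPS and at 0.5 h, ran from 1.45 through a median of 1.65 to 1.80 at 1 h, and was 1.26, 1.39, 1.51 and 1.40 at 2 h. It was thus separate from the earlier times in every library at 1 and 2 h, on values that correspond to a very low level. The difference was 0.79 (SE 0.05, adjusted p = 5.28e-20, 1.72-fold) at 1 h and 0.53 (SE 0.05, adjusted p = 2.22e-12, 1.44-fold) at 2 h, where 31.1% and 50.3% of the 18098 genes were called, and the fall from 1 to 2 h was called as well (-0.26, adjusted p = 6.95e-05) among 44.8% of them.

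The WT libraries came in 2 sets, replicates 4 to 6 and 7 to 9, and these differed in Csf2 in opposite directions at 0.5 and 1 h. At 0.5 h Csf2 was 3.49, 3.57 and 3.74 in replicates 4 to 6 and 4.92, 4.43 and 5.16 in replicates 7 to 9. At 1 h it was 9.31, 9.10 and 9.24 in the former and 8.40, 8.03 and 8.07 in the latter. The sets did not overlap at either time. Replicates 7 to 9 were higher by 1.23 (adjusted p = 8.82e-07) at 0.5 h and lower by a difference of -1.05 (adjusted p = 4.19e-05) at 1 h, while without LPS the difference was -0.07 (adjusted p = 0.850). Csf1 also differed at 1 h, by -0.53 (adjusted p = 3.85e-04). Of all genes, 4.22% without LPS, 12.9% at 0.5 h and 11.7% at 1 h were called between the sets. With replicates 4 to 6 alone, in a fit without pairing by number, the rise of Csf2 at 0.5 h was 0.26 (adjusted p = 0.517). That of Csf1 was 0.19 (adjusted p = 0.354), so in such a fit the calls at 0.5 h rest on replicates 7 to 9. Both genes were nevertheless higher at 0.5 h than without LPS in each of replicates 4 to 6. The 4 libraries at 2 h were replicates 4 to 7, so the sets weigh differently at 1 and 2 h. From 1 to 2 h Csf1 changed by 0.09 and Csf3 by -0.30 (adjusted p = 3.20e-04) in replicates 4 to 6. Their changes of 0.67 and -0.21 in replicates 7 to 9 rest on 1 library at 2 h and are given as values. The labels do not say what separates the sets, and its part in the comparisons with WT was read by using each set as the control.

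**Figure D2:**
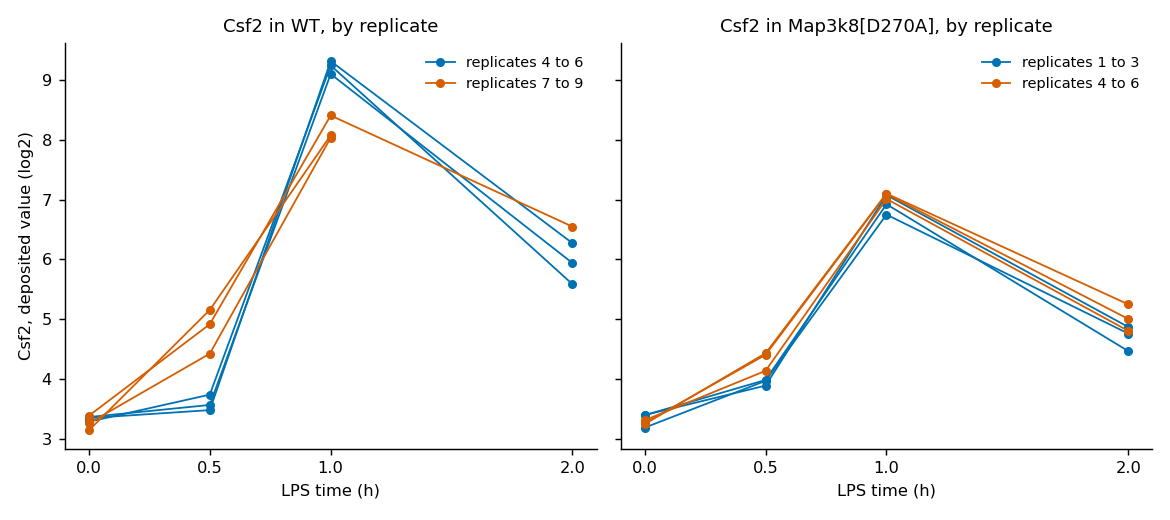
Csf2 (deposited values, log2 scale) in each library against time of LPS in h, with WT replicates 4 to 6 and 7 to 9 and Map3k8[D270A] replicates 1 to 3 and 4 to 6 drawn apart. WT replicates 7 to 9 lie above replicates 4 to 6 at 0.5 h (4.43 to 5.16 against 3.49 to 3.74) and below them at 1 h (8.03 to 8.40 against 9.10 to 9.31).

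Without TPL-2 kinase activity, Csf2 and Csf3 were lower at 1 and 2 h of LPS, while the call of Csf1 depended on the fit. Csf2 in Map3k8[D270A] cells ran from 6.75 through a median of 7.04 to 7.10 at 1 h and from 4.47 through 4.84 to 5.25 at 2 h. Every one of these libraries lay below every WT library of the same time. The difference from WT was -1.70 (SE 0.20, adjusted p = 3.86e-09) at 1 h, or 3.25-fold lower, and -1.22 (SE 0.22, adjusted p = 2.14e-05) at 2 h, or 2.34-fold lower. At 1 h it was -2.30 between WT replicates 4 to 6 and mutant replicates 1 to 3, and -1.10 between WT replicates 7 to 9 and mutant replicates 4 to 6. Without LPS the difference was 0.00 and at 0.5 h -0.08 (adjusted p = 0.931). Csf2 thus still rose in these cells, by 0.84 (adjusted p = 0.00413) at 0.5 h, 3.69 at 1 h and 1.56 at 2 h. This rise differed from that in WT by -1.70 (adjusted p = 4.39e-05) and -1.23 (adjusted p = 0.00239) at the later times. Of all genes, 5.08%, 41.9% and 69.5% were called for the response in these cells and 2.02% and 15.5% for its difference from WT at 1 and 2 h.

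Csf3 ran from 0.86 through 0.91 to 1.06 at 1 h and from 0.91 through 0.96 to 1.17 at 2 h in Map3k8[D270A] cells. No library reached the lowest WT value of its time. The differences were -0.70 (adjusted p = 3.86e-16) and -0.40 (adjusted p = 9.96e-08), and the response to LPS was called at 2 h (0.13, adjusted p = 0.0195) but not at 1 h (0.08, adjusted p = 0.238), among 48.8% and 27.3% of genes called. Csf1 differed from WT by -0.26 (adjusted p = 0.0561) at 1 h and 0.24 (adjusted p = 0.0760) at 2 h, where the 6 mutant libraries, from 12.78 to 12.90, nevertheless all lay above the 4 of WT. Both passed the threshold in other fits, the former with all libraries (adjusted p = 0.0370) and the latter with only the groups compared (adjusted p = 0.0154). From 1 to 2 h Csf1 rose by 0.86 in the mutant, where 61.6% of genes were called, and by 0.50 (adjusted p = 0.00944) more than in WT, a difference called for 11.4%. The step in WT was itself 0.09 or 0.67 by set, and this comparison was not run by set. At 1 and 2 h, 9.79% and 27.7% of genes were called between Map3k8[D270A] and WT cells, with 1.44% and 1.37% without LPS and at 0.5 h, and in the fit that holds Csf3 the shares at 1 and 2 h were 6.07% and 18.2%.

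In Elk1-/-Elk4-/- cells, Csf2 was higher than in WT at 0.5 h and lower at 1 and 2 h. The 4 libraries gave 3.34, 3.71, 3.75 and 3.27 without LPS, 5.54, 5.72, 5.64 and 5.22 at 0.5 h, 7.34, 7.77, 7.63 and 7.47 at 1 h and 3.71, 4.33, 4.12 and 4.35 at 2 h. At 0.5 h all 4 lay above the highest WT library, and at 1 and 2 h all 4 lay below the lowest. The difference from WT was 1.31 (adjusted p = 4.19e-06, 2.49-fold higher) at 0.5 h, -1.14 (adjusted p = 2.91e-05, 2.20-fold lower) at 1 h and -1.96 (SE 0.25, adjusted p = 2.95e-09, 3.89-fold lower) at 2 h, and 0.22 (adjusted p = 0.430) without LPS. Against WT replicates 4 to 6 it was 1.93 at 0.5 h and -1.66 at 1 h, and against replicates 7 to 9 it was 0.70 and -0.61, all of them called. The rise over cells without LPS was 2.01 (adjusted p = 6.31e-09, 4.03-fold) at 0.5 h, 4.03 at 1 h and 0.61 (adjusted p = 0.0264) at 2 h, the last of which was lost in 4 of 8 fits that each left out 1 library. Against the rise in WT it was not called different at 0.5 h (adjusted p = 0.386) and differed by -1.35 (adjusted p = 0.0107) at 1 h and -2.18 (adjusted p = 2.36e-06) at 2 h. From 1 to 2 h Csf2 fell 10.8-fold in these cells, among 61.8% of genes called, and this fall differed from that in WT by -0.82 (adjusted p = 0.0988, with 12.3% of genes called). For the response itself 4.96%, 33.3% and 67.2% of genes were called at the 3 times, and for its difference from WT 0.0589%, 1.35% and 16.9%.

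Csf1 was not called different from WT in the double mutant, at 0.04, 0.21, 0.12 and -0.11 without LPS and at 0.5, 1 and 2 h. The call turned with the WT set, being 0.29 (adjusted p = 0.00655) at 0.5 h and -0.15 at 1 h against replicates 4 to 6, and 0.14 and 0.38 (adjusted p = 0.00163) against replicates 7 to 9. Csf3 was 1.16, 1.40, 1.42 and 1.47 at 1 h, overlapping the WT range, and 1.29, 1.40, 1.62 and 1.36 at 2 h. It was lower than in WT at 1 h by a difference of -0.29 (adjusted p = 2.55e-05), with 0.03 (adjusted p = 0.827) at 2 h. Its mean was 1.36 at 1 h and 1.42 at 2 h, whereas that of Csf2 went from 7.56 to 4.13. Over all genes, 51.8%, 44.4%, 53.4% and 50.8% were called between the double mutant and WT at the 4 times, and 36.4% and 35.1% at 1 and 2 h in the fit that holds Csf3, so a call by itself says little here and the size is given beside it: Csf2 had the 52nd lowest difference of all genes at 1 h and the 14th lowest at 2 h. Of 8 neutrophil markers, S100a8, S100a9, Ngp and Ltf reached a linear value of 10 in every library of the study and Ly6g, Elane and Mpo in none. Their summed linear level ran from 1051 to 2108 in the double mutant and from 75.7 to 214 in WT, and that of 4 dendritic cell markers from 863 to 1151 against 1432 to 3977. At 2 h the 3 endothelial markers summed to 390 to 482 in the double mutant against 264 to 296 in WT. The 7 macrophage markers lay below WT at all 4 times, at 338775 to 359247 against 396159 to 445336 at 1 h. The mast cell or basophil markers lay above it without LPS (85.7 to 165 against 32.8 to 82.5) and at 0.5 h (91.3 to 175 against 34.8 to 73.0), nearly all of it Kit, since Cpa3 and Mcpt8 were below 0 on the log2 scale in every library. The part of these markers in the values of Csf2 and Csf3 was not tested, and fewer cells of a type and less RNA per cell cannot be told apart in bulk samples.

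Nfkb1[SS/AA] cells had the lowest Csf2 under LPS of any genotype or inhibitor at 1 h. Csf2 ran from 3.53 through a median of 3.59 to 3.66 without LPS, from 3.57 through 3.71 to 3.85 at 0.5 h and from 3.76 through 4.10 to 4.51 at 1 h. The 6 libraries at 1 h lay far below the lowest WT library of that time, 8.03, whereas those at 0.5 h overlapped WT. The difference from WT at 1 h was -4.60 (SE 0.16, adjusted p = 4.13e-45), or 24.3-fold lower, the lowest of 11971 genes, and it was -4.69 without the library of replicate 2 that stood apart. At 0.5 h it was -0.50 (adjusted p = 0.0101), a call that was lost, at -0.50 (adjusted p = 0.183), in a fit of only the groups compared and the difference was 0.11 (adjusted p = 0.545) against WT replicates 4 to 6 and -1.12 (adjusted p = 7.60e-11) against replicates 7 to 9. The response to LPS was 0.12 (adjusted p = 0.729) at 0.5 h and 0.49 (adjusted p = 0.00786, 1.41-fold) at 1 h, and the latter differed from that in WT by -4.90 (adjusted p = 9.44e-35), where 6.07% of genes were called. The responses themselves were called for 14.6% and 44.4% of genes.

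Csf1 in the same cells rose by 2.32 at 1 h, and its difference from WT there was -0.12 (adjusted p = 0.281), or -0.38 (adjusted p = 5.63e-04) against WT replicates 4 to 6 and 0.15 against replicates 7 to 9. The rise differed from that in WT by -0.35 (adjusted p = 0.0758, and 0.0112 with libraries paired by replicate number). It was slightly higher than in WT without LPS, by 0.23 (adjusted p = 0.0335), and at 0.5 h, by 0.35 (adjusted p = 7.76e-04), where its libraries, 10.13 to 10.36, did not overlap those of WT. The call without LPS was lost in 6 of 12 fits that each left out 1 library and against WT replicates 4 to 6 (0.11). Csf3 ran from 0.90 through 1.09 to 1.19 at 1 h, below all WT libraries, with a difference of -0.58 (adjusted p = 9.03e-22), and -0.59 without replicate 2. Its own rise at 1 h was 0.18 (adjusted p = 3.29e-04), among 28.6% of genes called. The number of genes called for the response at 0.5 h went from 1751 to 2871 with that pairing. Between these cells and WT without LPS and at 0.5 and 1 h, 32%, 32.3% and 42.5% of genes were called, and 28.4% at 1 h in the fit that holds Csf3. The 7 macrophage markers summed to 448009 to 575364 at 1 h, above the 396159 to 445336 of WT, and their part in these values was not tested.

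With PD0325901, Csf2 and Csf3 were lower than in WT at 1 h and were not called different at 0.5 h. Csf2 in cells given inhibitor and LPS ran from 4.30 through a median of 4.37 to 4.51 at 0.5 h and from 6.42 through 6.46 to 6.47 at 1 h, and the 9 libraries with inhibitor alone lay between 3.35 and 3.55. The libraries at 1 h lay below all WT libraries of that time, and those at 0.5 h fell inside the WT range. The difference from WT was -2.24 (SE 0.16, adjusted p = 6.55e-22, 4.72-fold lower) at 1 h, the 4th lowest of all genes, and 0.17 (adjusted p = 0.458) at 0.5 h, where it was 0.785 (adjusted p = 1.09e-06) against WT replicates 4 to 6 and -0.45 (adjusted p = 0.00879) against replicates 7 to 9. Csf2 still rose over inhibitor alone, by 0.90 (adjusted p = 3.10e-04) at 0.5 h and 2.95, or 7.74-fold, at 1 h, the latter differing from the rise in WT by -2.44 (adjusted p = 4.24e-13). Of all genes, 14.9% and 43.6% were called for these responses and 3.58% for the difference at 1 h.

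Csf1 with PD0325901 differed from WT by -0.05 at 0.5 h and 0.14 (adjusted p = 0.192) at 1 h and rose by 2.44 at 1 h. The value at 1 h was -0.12 against WT replicates 4 to 6 and 0.41 (adjusted p = 6.72e-04) against replicates 7 to 9. Csf3 ran from 0.87 through 0.99 to 1.14 at 1 h, below all WT libraries, and differed by -0.66 (adjusted p = 1.91e-24), while its rise over inhibitor alone was 0.11 (adjusted p = 0.0883, with 32.9% of genes called). At 0.5 and 1 h, 29.4% and 35.7% of genes were called, and 23.2% at 1 h in the fit that holds Csf3. Inhibitor for 10 min and DMSO for 10 min differed by 0.02 in Csf1, 0.04 in Csf2 and 0.03 in Csf3, none of them called, and 0 genes of 11971 (0%) were called between them by limma, with or without a mean-variance trend, where 245 had an unadjusted p below 0.05. Both stood above untreated WT cells in Csf1, by 0.28 (adjusted p = 0.0392) for the inhibitor, a call lost in 5 of 9 fits that each left out 1 library and against WT replicates 4 to 6 (0.17), and 0.26 (adjusted p = 0.0610) for DMSO, with 25.9% and 23.6% of all genes called in these comparisons between experiments. The summed level of the neutrophil markers ran from 272 to 449 with inhibitor and LPS, above every WT library (at most 214), and from 157 to 441 with inhibitor or DMSO alone. That of the 3 endothelial markers was 292 to 408 at 0.5 h and 265 to 366 at 1 h with inhibitor and LPS, above WT at those times (at most 237 and 228). The part of these markers in the values of Csf2 and Csf3 was not tested here either. The 6 libraries with inhibitor and LPS resembled each other by number, 1 with 4, 2 with 5 and 3 with 6, and the labels do not say whether they are repeats of 3 cultures. With each of these averaged to 1 value (n = 3), Csf2 differed from WT by -2.24 (adjusted p = 1.51e-15) and Csf3 by -0.66 (adjusted p = 3.88e-18) at 1 h.

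With RSKi47 both Csf1 and Csf2 were lower than in WT at 1 and 2 h. Csf1 gave 11.28, 11.45, 11.50 and 11.07 at 1 h and 12.40, 12.26, 12.39 and 11.63 at 2 h. Each of these lay below the lowest WT library of its time, 11.74 and 12.42, and replicate 4 at 2 h, the library that stood apart, was the lowest. The difference from WT was -0.89 (SE 0.10, adjusted p = 3.71e-13, 1.86-fold lower) at 1 h and -0.41 (SE 0.11, adjusted p = 6.37e-04, 1.33-fold lower) at 2 h, and at 2 h it was -0.23 (adjusted p = 0.0552) without replicate 4. The rise of Csf1 differed from that in WT by -0.98 (adjusted p = 1.07e-07) at 1 h and -0.50 (adjusted p = 0.00678) at 2 h, differences called for 5.54% and 21% of genes, of which the latter was -0.32 (adjusted p = 0.0919) without replicate 4 at 2 h. From 1 to 2 h Csf1 rose by 0.84 with RSKi47 (53.6% of genes called), 0.48 (adjusted p = 0.0138) more than in WT (14.9%), though this call was lost in 4 of 18 fits that each left out 1 library and the WT step was 0.09 in replicates 4 to 6.

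Csf2 with RSKi47 was 3.63, 3.54, 3.59 and 3.61 without LPS, 4.06, 3.79 and 3.72 at 0.5 h, 6.35, 6.23, 6.32 and 6.25 at 1 h and 5.16, 4.63, 4.84 and 5.54 at 2 h. At 1 and 2 h all libraries lay below those of WT, by differences of -2.41 (SE 0.18, adjusted p = 2.19e-21, 5.30-fold lower) and -1.05 (SE 0.20, adjusted p = 3.88e-06, 2.07-fold lower). The value at 2 h was -1.21 without replicate 4. At 0.5 h the difference was -0.36 (adjusted p = 0.121), which was 0.26 (adjusted p = 0.147) against WT replicates 4 to 6 and -0.98 (adjusted p = 1.42e-07) against replicates 7 to 9. Csf2 fell less from 1 to 2 h than in WT, by -1.25 against -2.60, a difference of 1.36 (adjusted p = 6.78e-05), where the WT fall was -3.28 or -1.62 by set. Csf3 was 1.16, 1.18, 1.25 and 1.08 at 1 h and 1.27, 1.20, 1.32 and 1.18 at 2 h, apart from WT at 1 h and overlapping it at 2 h, with differences of -0.48 (adjusted p = 7.12e-15) and -0.14 (adjusted p = 0.0195), of which the latter was -0.12 (adjusted p = 0.0767) without replicate 4.

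Without LPS and at 0.5, 1 and 2 h, 53%, 48.2%, 52.8% and 52.1% of all genes were called between RSKi47 and WT, and 36.9% and 36.8% at 1 and 2 h in the fit that holds Csf3. Csf2 had the 5th lowest difference at 1 h and Csf1 the 100th lowest. The summed level of 5 fibroblast markers ran from 33.5 to 683 with RSKi47 and from 15.7 to 30.6 in WT, with Col3a1, Dcn and Pdgfra under a linear value of 10 in every library, and that of the dendritic cell markers ran from 4084 to 5683 against 1432 to 3977. That of the 3 endothelial markers was 431 to 449 with RSKi47 at 0.5 h and 279 to 397 at 1 h, against 154 to 237 and 131 to 228 in WT, with Pecam1 and Cdh5 at most 3.44 and 3.32 on the log2 scale in any library and Kdr the third. The neutrophil markers lay above WT without LPS (180 to 225 against 82.3 to 146) and at 2 h (241 to 385 against 85.4 to 212), and the macrophage markers at 0.5 and 1 h (453079 to 492030 against 396159 to 445336 at 1 h). The endothelial markers also lay above WT without LPS (276 to 380 against 150 to 255). The T cell markers lay below WT at 2 h (206 to 215 against 246 to 368). The part of all these markers in the values of Csf1, Csf2 and Csf3 was not tested.

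**Figure D3:**
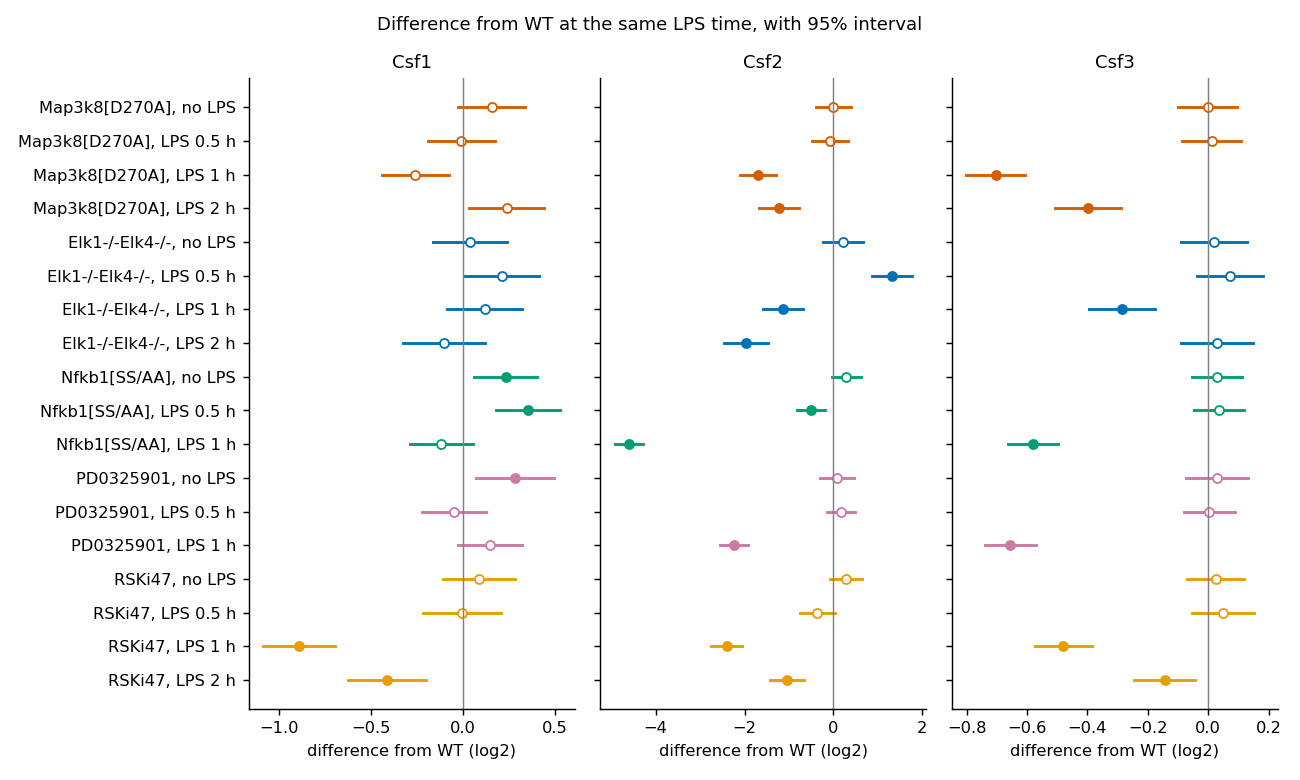
Difference from WT (log2 scale, with its 95% interval) of Csf1, Csf2 and Csf3 against time of LPS in h for each genotype and inhibitor, with filled points for an adjusted p below 0.05; PD0325901 without LPS is 10 min of inhibitor alone. At 1 h Csf2 lies below WT in all 5, from -1.14 in Elk1-/-Elk4-/- to -4.60 in Nfkb1[SS/AA] cells, and Csf1 is lowest with RSKi47, at -0.89.

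The response of Csf3 at 1 h differed from that in WT in all 5, by -0.70 in Map3k8[D270A], -0.31 in Elk1-/-Elk4-/-, -0.61 in Nfkb1[SS/AA], -0.67 with PD0325901 and -0.50 with RSKi47, in the fit that called 1.26%, 0.901%, 3.78%, 6.27% and 3.6% of genes. The call in Elk1-/-Elk4-/- cells (adjusted p = 0.0293) was lost in some fits that each left out 1 library. At 2 h the difference was -0.40 in Map3k8[D270A] cells, with 10% of genes called. Csf3 fell from 1 to 2 h in WT, and its change over this hour was higher than that by 0.31 in Map3k8[D270A], 0.31 in Elk1-/-Elk4-/- and 0.33 with RSKi47, with adjusted p values of 0.00342, 0.00701 and 2.53e-04 and shares of genes called of 7.38%, 8.37% and 10%. In these 3 its mean was 0.94, 1.36 and 1.17 at 1 h and 0.99, 1.42 and 1.25 at 2 h, with no call between the times.

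The genotypes and inhibitors were then compared with each other, in the same fits, whose estimate of spread includes the WT libraries. Here too a difference between genotypes or inhibitors and a difference between experiments cannot be told apart. In Csf2 at 1 h, the order from the highest was WT (8.69 ± 0.59, SD, n = 6), Elk1-/-Elk4-/- (7.56 ± 0.19, n = 4), Map3k8[D270A] (6.99 ± 0.14, n = 6), PD0325901 (6.45 ± 0.02, n = 6), RSKi47 (6.29 ± 0.06, n = 4) and Nfkb1[SS/AA] (4.09 ± 0.30, n = 6). Csf2 in Nfkb1[SS/AA] cells was lower than in Map3k8[D270A] cells by a difference of -2.90 (adjusted p = 1.00e-29, 7.47-fold) and lower than with PD0325901 by -2.36 (adjusted p = 4.27e-23). PD0325901 lay below Map3k8[D270A] by -0.54 (adjusted p = 0.00459) and RSKi47 below Map3k8[D270A] by -0.71 (adjusted p = 6.12e-04). RSKi47 and PD0325901 differed by -0.17 (adjusted p = 0.449, 95% interval -0.52 to 0.19), although their libraries did not overlap and a fit of only these groups gave an adjusted p of 7.77e-04 for Csf2. Of all genes, 24.6% were called lower in the first of these comparisons, and 32.3%, 40.7%, 49.8% and 53.9% were called in the others.

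The double mutant and Map3k8[D270A] cells changed places in Csf2 over time. Elk1-/-Elk4-/- cells were higher by 1.39 (adjusted p = 1.15e-06) at 0.5 h and by 0.56 (adjusted p = 0.0314) at 1 h and lower by a difference of -0.74 (adjusted p = 0.00527) at 2 h, among 49.4%, 51.6% and 49.6% of genes called. The call at 1 h was lost in 3 of 10 fits that each left out 1 library. In Csf3 the double mutant was higher at both 1 and 2 h, by 0.42 (adjusted p = 1.57e-08) and 0.43 (adjusted p = 8.35e-09), where 35.5% and 34.4% of genes were called. Csf1 was higher in the double mutant at 1 h (0.38, adjusted p = 0.00159) and lower at 2 h (-0.34, adjusted p = 0.00417).

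Csf1 also differed between these groups at 1 h. It was lower with RSKi47 than with PD0325901 by a difference of -1.04 (adjusted p = 3.45e-16) and lower than in Map3k8[D270A] cells by -0.63 (adjusted p = 4.60e-08), and at 2 h by -0.65 (adjusted p = 1.79e-08, with 50.6% of genes called). With PD0325901 it was higher than in Map3k8[D270A] cells by 0.41 (adjusted p = 1.00e-04). Nfkb1[SS/AA] and Map3k8[D270A] cells differed by 0.14 (adjusted p = 0.175) in Csf1 at 1 h. Csf3 with RSKi47 was 0.18 (adjusted p = 0.00137, 37.7% of genes called) above PD0325901, which itself differed from Map3k8[D270A] cells by 0.05 (adjusted p = 0.476, 26.5%).

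Across all 25 groups, Csf1 was highest in Map3k8[D270A] cells at 2 h (12.82 ± 0.04, SD, n = 6), followed by WT at 2 h (12.58 ± 0.11, n = 4), and the lowest mean was that of WT cells without LPS (9.55 ± 0.17, n = 6), within the spread of the next, Elk1-/-Elk4-/- without LPS (9.59). Csf2 ran from 8.69 in WT at 1 h to 3.30 ± 0.09 in WT without LPS. WT at 2 h (6.09 ± 0.42) stood beside RSKi47 at 1 h and did not differ from it beyond the larger SD of the groups, and the same held for RSKi47 (5.04 ± 0.40) and Map3k8[D270A] (4.86 ± 0.26) at 2 h. Csf3 was highest in WT at 1 h (1.65 ± 0.14, n = 6), and then in the double mutant (1.42 ± 0.14, n = 4) and WT (1.39 ± 0.10, n = 4) at 2 h, whose gap was within that spread.

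The receptors for the 3 factors were all expressed, and with LPS they changed by less than Csf1 and Csf2. Without LPS the WT level was 14.97 ± 0.10 (SD, n = 6) for Csf1r, 12.14 ± 0.14 for Csf2ra, the alpha chain of the CSF2 receptor, 12.70 ± 0.23 for Csf2rb, the beta chain it shares with the receptors of IL-3 and IL-5, 13.18 ± 0.18 for Csf2rb2, the mouse beta chain of the IL-3 receptor, and 10.52 ± 0.12 for Csf3r. At 2 h of LPS 3 of the 5 were higher, Csf1r by 0.22, Csf2ra by 0.32 and Csf3r by 0.27, where 34.7% of all genes were higher. In Map3k8[D270A] cells 1 of 5 was called at any time, Csf2rb at 2 h (-0.26, adjusted p = 0.0324), where 13.1% of all genes were lower.

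**Figure D4:**
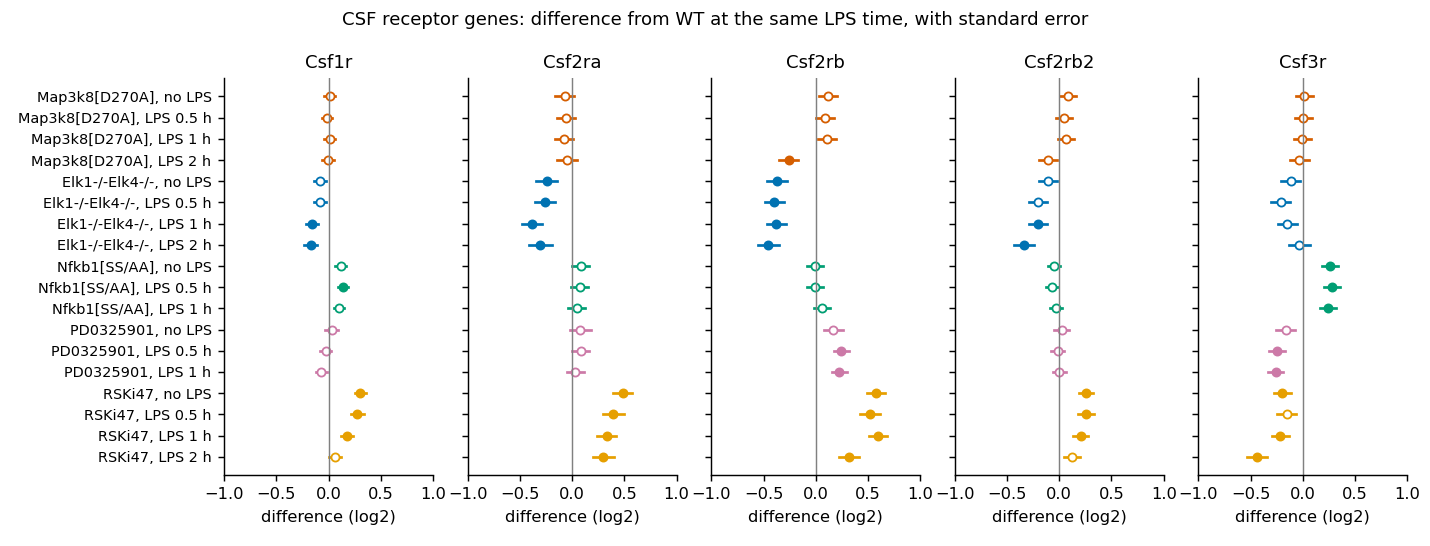
Difference from WT (log2 scale, with its SE) of the receptor genes Csf1r, Csf2ra, Csf2rb, Csf2rb2 and Csf3r against time of LPS in h in each genotype and inhibitor, with filled points for an adjusted p below 0.05. Csf2rb lies below WT in Elk1-/-Elk4-/- cells at every time, by -0.37 to -0.45, and above WT with RSKi47, by 0.32 to 0.60.

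In Elk1-/-Elk4-/- cells 2, 2, 4 and 4 of the 5 receptors were lower than in WT at the 4 times, where 24.6%, 22%, 26.2% and 23.1% of all genes were lower. Csf2rb differed by -0.37, -0.40, -0.38 and -0.45 and Csf2ra by -0.25, -0.26, -0.38 and -0.31. With RSKi47, 4, 4, 4 and 2 of 5 were higher and 1, 0, 1 and 1 lower, where 26.8%, 23.7%, 26.5% and 27.5% of all genes were higher, with Csf2rb at 0.58, 0.52, 0.60 and 0.32 and Csf2ra at 0.48, 0.39, 0.33 and 0.30. The median of the 5 receptors was -0.31 in the double mutant and 0.12 with RSKi47 at 2 h, beside 0.019 and 0.017 over all genes. Csf3r was lower with RSKi47 without LPS (-0.20) and at 1 and 2 h (-0.22 and -0.44) and higher in Nfkb1[SS/AA] cells without LPS and at 0.5 and 1 h (0.26, 0.28 and 0.24).

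Of 5 related ligands, Il34, the other ligand of CSF1R, reached 0.58 ± 0.12 (SD, n = 4) at 2 h in WT cells from 0.06 without LPS, and Il3 and Il5 stayed near the lowest value of the data, -2.40. None of these 3 passed the filter on low values. Kitl, the ligand of KIT, fell by 0.62 in WT at 2 h and Flt3l, the ligand of FLT3, fell by 0.20. Kitl was higher than in WT in the double mutant at all 4 times (0.74, 0.65, 0.74 and 0.63) and lower in Nfkb1[SS/AA] cells at all 3 (-0.60, -0.66 and -0.70), with and without LPS.

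All 18 genes listed for signalling below the receptors were tested. In WT cells 3, 10 and 13 were higher and 0, 2 and 3 lower at 0.5, 1 and 2 h of LPS, where 7.82%, 23.8% and 34.7% of all genes were higher. A rise of at least 1 was seen in 8 at 2 h, beside 7.72% of all genes, among them Cish (6.08), a target and inhibitor of STAT5 signalling, the cytokine signalling inhibitors Socs3 (5.51), Socs1 (4.63) and Socs2 (1.06), Stat5a (3.45) and Jak2 (3.21), which carry the CSF2 signal, and the phosphoinositide 3-kinase subunit Pik3r1 (1.05). Socs3 had already risen by 3.39 at 0.5 h. The median difference of the 18 genes at 2 h was 0.80, against -0.018 for all genes. At 2 h, 11 of the 18 were lower than in WT in Map3k8[D270A] cells, 8 in the double mutant and 9 with RSKi47, and 10 were lower at 1 h in Nfkb1[SS/AA] cells, beside 13.1%, 23.1%, 24.6% and 21.9% of all genes. Cish was lower than in WT at 2 h in Map3k8[D270A] cells (-1.29), in the double mutant (-1.31) and with RSKi47 (-1.43). Csf2 was lower there too, and a link of Cish to Csf2 was not tested. Socs3 was lower by at least 1 in Nfkb1[SS/AA] cells at 1 h (-1.04).

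Among 8 factors that act on the decay of cytokine mRNAs, 6 were higher at 0.5 h of LPS in WT cells, beside the 7.82% of all genes. Zfp36, which binds ATTTA elements, rose by 3.09, 2.81 and 1.49 at 0.5, 1 and 2 h. Zc3h12a, an RNase, rose by 1.37, 2.55 and 2.81. The Zfp36 relatives Zfp36l1 and Zfp36l2 were lower at 2 h, by -1.17 and -2.07. The largest difference from WT among these genes was that of Zfp36 in Nfkb1[SS/AA] cells at 1 h (-1.02), where 6 of 8 were lower, beside 21.9% of all genes, and their median was -0.23 against -0.0063. With PD0325901 at 1 h 6 of 8 were lower, beside 19.3% of all genes, and with RSKi47 at 1 h 5 were higher, beside 26.5%, and 1 lower.

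The genes whose group means most resembled those of each factor were found over all groups. Over the 25 group means, which share libraries and LPS times, Csf1 was closest to Plscr1 (Pearson's r = 0.985), Tfec (0.983), Hnrnpll (0.983), Icosl (0.982) and Cdc42ep2 (0.981). Csf2 was closest to Lif (0.923), Arl5b (0.916), Spry1 (0.909), Il23a (0.909) and Cdc42ep4 (0.905), of which Lif and Il23a encode cytokines and Spry1 an inhibitor of ERK1/2 signalling. Csf3 was closest to Il1bos (0.883), Il23a (0.881), Uap1 (0.877), Serpinb2 (0.874) and Ctsc (0.868), so Il23a was near both Csf2 and Csf3. The 3 factors resembled each other less, at 0.711 for Csf1 and Csf2, 0.765 for Csf1 and Csf3 and 0.720 for Csf2 and Csf3. By Spearman's rho the nearest gene was Irf1 for Csf1 (0.959), Lif for Csf2 (0.933) and Mab21l3 for Csf3 (0.945).

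The nearest genes with a value gave other courses. Il3, which lies 15636 bases from Csf2 on chromosome 11, stayed at -2.40 in WT cells and was not tested, and P4ha2, 115606 bases away on the same chromosome, differed from WT by -0.35 with PD0325901 at 1 h. Beside Csf1, Ahcyl1 at 44488 bases rose by 0.38 at 2 h in WT. Beside Csf3, Med24 at 962 bases fell by 0.37 and Psmd3 at 5284 bases rose by 0.27 at 2 h in WT. Ormdl3 at 113895 bases fell by 0.70 at 1 h and 0.93 at 2 h. Thra at 37009 bases was not called in WT at 1 or 2 h of LPS. It was lower in Map3k8[D270A] cells than in WT at 2 h (-0.23, adjusted p = 0.0493 by limma).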

How the data were processed

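RNA of BMDM libraries in 25 groups was sequenced. By the study's methods and the submitters' processing notes, single-end reads with strand information were aligned by the authors to mm10 with STAR, counts per RefSeq gene were estimated with RSEM and groups compared with DESeq2. For the authors' processing the notes name STAR 2.5.1b, RSEM 1.2.29 and DESeq2 1.10.1, and the methods name other versions of STAR and RSEM. The deposited values are normalized log2 expression, from -2.40 to 19.81 over 18098 genes, and counts could not be read back. In 1 case, Fosb in RSKi47 replicate 1 at 1 h, a value above 25 was treated as missing.

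Groups came from the labels. Differences were computed with limma 3.58.1 in R 4.3.3 (moderated test, no trend, Benjamini-Hochberg adjustment), as a substitute for a count test. WT, Map3k8[D270A] and Elk1-/-Elk4-/- libraries (62) were fitted on 11884 genes and all libraries on 11971, after the filter given above; each fit had 1 mean per group. Of 200 genes changed in simulated data, 50 of 50 at a difference of -2 were called, 49 of 50 at -1, and 5 of 11684 unchanged genes. The simulation drew independent normal noise, without the WT sets, shared replicate numbers or differences between experiments. It checks the fit and does not give the rate of false calls in these data. Libraries of the same number deviated together in WT (lowest correlation 0.164 over 30 pairs) and Nfkb1[SS/AA] cells (0.145 over 18). The same was true of Map3k8[D270A] (0.072 over 36) and RSKi47 cells (0.071 over 21). The main fits did not use the number, and alternative fits took it as a block. The genes named are the 3 factors, their pathway lists (members changed by at least 1, or with a list's range), their neighbours and the 5 genes most alike each; some of them are not reported here. Members and lists were chosen with earlier results of these data known. Gene positions and 3′ untranslated regions are from GENCODE M21. Cell type markers of T cells (Cd3e, Cd3g and Cd8a) reached a linear value of 10 in no library, and Cd4 in all.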

Additional observations from a re-analysis of the deposited data

Results flagged for a closer look

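Csf1, Csf2 and Csf3 were each examined in every group of 4 to 10 libraries, 60 tests in all, and 2 found a library of Csf3 far above the others, where chance flags about 1 in 20. Csf3 was 0.913 in PD0325901 replicate 4 at 0.5 h of LPS, with the nearest of the 6 libraries at 0.866, and 0.985 in Nfkb1[SS/AA] replicate 1 at 0.5 h, with the nearest at 0.890. Both lie at the foot of the scale.

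Other results are listed because the response to LPS differed from that in WT by limma's test of the difference. For Csf2 this held at 1 and 2 h for Map3k8[D270A] (-1.70, adjusted p = 4.39e-05, and -1.23, adjusted p = 0.00239), for Elk1-/-Elk4-/- (-1.35, adjusted p = 0.0107, and -2.18, adjusted p = 2.36e-06) and for RSKi47 (-2.69, adjusted p = 3.62e-14, and -1.33, adjusted p = 5.72e-05), and at 1 h for Nfkb1[SS/AA] (-4.90, adjusted p = 9.44e-35) and PD0325901 (-2.44, adjusted p = 4.24e-13). Over all genes, 2.02% and 15.5% were called for Map3k8[D270A], 1.35% and 16.9% for Elk1-/-Elk4-/-, 5.54% and 21% for RSKi47, 6.07% for Nfkb1[SS/AA] and 3.58% for PD0325901. For Csf3 the differences were -0.70 (adjusted p = 2.43e-10) and -0.40 (adjusted p = 7.77e-05) at 1 and 2 h in Map3k8[D270A] cells, and at 1 h -0.31 (adjusted p = 0.0293, lost in 6 of 20 fits that each left out 1 library) in Elk1-/-Elk4-/- cells, -0.61 (adjusted p = 4.73e-14) in Nfkb1[SS/AA] cells, -0.67 (adjusted p = 9.74e-15) with PD0325901 and -0.50 (adjusted p = 2.41e-08) with RSKi47. For Csf1 they were -0.98 (adjusted p = 1.07e-07) at 1 h and -0.50 (adjusted p = 0.00678) at 2 h with RSKi47, the latter being -0.32 (adjusted p = 0.0919) without RSKi47 replicate 4 at 2 h.

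The change from 1 to 2 h of LPS differed from that in WT for Csf1 in Map3k8[D270A] cells (0.50, adjusted p = 0.00944) and with RSKi47 (0.48, adjusted p = 0.0138), for Csf2 with RSKi47 (1.36, adjusted p = 6.78e-05), and for Csf3 in Map3k8[D270A] cells (0.31, adjusted p = 0.00342), Elk1-/-Elk4-/- cells (0.31, adjusted p = 0.00701) and with RSKi47 (0.33, adjusted p = 2.53e-04). For Csf1 and Csf2, 11.4% of all genes were called in Map3k8[D270A] cells and 14.9% with RSKi47, and in the fit that holds Csf3 the shares were 7.38%, 8.37% and 10% for the 3 in turn.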

How the results depend on the processing

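None of the calls of Csf1, Csf2 and Csf3 changed when library medians were aligned or limma was given a mean-variance trend (204 results each), and 2537 of 2601 results that left out 1 library kept their call. The differences of Csf2 from WT at 1 and 2 h of LPS kept direction and call in every alternative run, but their size moved with the WT set: at 1 h from -2.30 to -1.10 in Map3k8[D270A] and from -1.66 to -0.61 in Elk1-/-Elk4-/- cells. Requiring a difference of at least 1 ended 65 of the calls among 204 results, including those of Csf1 in WT at 0.5 h (0.38), Nfkb1[SS/AA] at 0.5 h (0.35) and RSKi47 at 1 and 2 h (-0.89 and -0.41), of Csf2 in WT (0.91) and Nfkb1[SS/AA] (-0.50) at 0.5 h, and of Csf3 in WT at 1 and 2 h (0.79 and 0.53), Map3k8[D270A] (-0.70 and -0.40), Elk1-/-Elk4-/- at 1 h (-0.29), Nfkb1[SS/AA] (-0.58), PD0325901 (-0.66) and RSKi47 (-0.48 and -0.14). A minimum of 0.693 ended 52, including those just named except Csf2 in WT at 0.5 h, Csf3 in WT and Map3k8[D270A] at 1 h and Csf1 with RSKi47 at 1 h.

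With only the groups compared in the fit, Csf1 in Map3k8[D270A] cells at 2 h was called (0.24, adjusted p = 0.0154) and Csf2 in Nfkb1[SS/AA] cells at 0.5 h (-0.50, adjusted p = 0.183), Csf1 (-0.41, adjusted p = 0.0710) and Csf3 (-0.14, adjusted p = 0.125) with RSKi47 at 2 h were not. With a replicate block across groups, Csf1 was called in Map3k8[D270A] (-0.42, adjusted p = 6.70e-05) and Nfkb1[SS/AA] (-0.27, adjusted p = 0.00545) at 1 h. It was also called in Elk1-/-Elk4-/- at 2 h (-0.24, adjusted p = 0.0314) and PD0325901 at 0.5 h (-0.20, adjusted p = 0.0430). In Elk1-/-Elk4-/- at 1 h it was -0.072. Between genotypes or treatments, libraries of the same number had a median correlation of -0.0046 (826 pairs), beside 9.3e-04 for other numbers. This block therefore joins libraries that share only a number. The block within a genotype also called the response of Csf1 at 1 h in Map3k8[D270A] cells (-0.41, adjusted p = 0.0126). Libraries of the same number also deviated together in Map3k8[D270A] (median correlation 0.425, lowest 0.072) and RSKi47 cells (median 0.318, lowest 0.071). In Elk1-/-Elk4-/- and PD0325901 libraries the medians were 0.231 and 0.071 and the lowest values -0.217 and -0.267. In the order named, 22 of 24, 14 of 15, 12 of 16 and 6 of 21 libraries correlated best with their own number. A fit of all libraries gave -0.26 (adjusted p = 0.0370) for Csf1 in Map3k8[D270A] at 1 h.

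Chosen after seeing the data were leaving out number 4 of RSKi47 for its responses to LPS, the comparison of the WT sets, DMSO against WT, the double mutant against Map3k8[D270A] at 0.5 h, the changes from 1 to 2 h outside WT and the ATTTA counts. WT replicates 4 to 6 against Map3k8[D270A] replicates 1 to 3 gave 0.16, -0.43 (adjusted p = 0.00107) and 0.23 (adjusted p = 0.0413) for Csf1 at 0.5, 1 and 2 h. For Csf2 at 0.5 h they gave 0.35. WT replicates 7 to 9 against mutant replicates 4 to 6 gave -0.18 and -0.09 for Csf1 at 0.5 and 1 h, neither called. For Csf2 at 0.5 h they gave -0.51, not called. At 2 h this WT set is replicate 7 alone, and its 0.21 for Csf1 is given as a value only. With WT replicates 4 to 6 as the control, Csf2 at 0.5 h was 0.11 in Nfkb1[SS/AA], where it changed sign (-1.12 with replicates 7 to 9), 0.785 (adjusted p = 1.09e-06) with PD0325901 and 0.26 with RSKi47, and Csf1 was 0.29 (adjusted p = 0.00655) at 0.5 h and -0.15 at 1 h in Elk1-/-Elk4-/-, -0.38 (adjusted p = 5.63e-04) in Nfkb1[SS/AA] and -0.12 with PD0325901 at 1 h. With replicates 7 to 9 as the control, Csf2 at 0.5 h was -0.45 with PD0325901, where it changed sign, and -0.98 with RSKi47. Csf1 at 1 h was then 0.38 (adjusted p = 0.00163) in Elk1-/-Elk4-/-, 0.15 in Nfkb1[SS/AA] and 0.41 (adjusted p = 6.72e-04) with PD0325901. At 2 h this control is 1 library, against which Csf3 with RSKi47 was -0.15. WT replicates 4 to 6 alone gave 0.19 for Csf1 and 0.26 for Csf2 at 0.5 h and 0.09 for Csf1 from 1 to 2 h, none called, and replicates 7 to 9 alone -0.21 for Csf3 from 1 to 2 h, again with 1 library at 2 h. Leaving out number 4 of RSKi47 gave -0.23 (adjusted p = 0.0501) for Csf1 and -0.12 (adjusted p = 0.0767) for Csf3 at 2 h. An exact permutation test, two-sided, gave p = 0.00476 for Csf1 in Map3k8[D270A] at 2 h (0.24), 0.0429 for Csf1 in Elk1-/-Elk4-/- at 0.5 h (0.21), 0.162 for Csf2 (-0.50) and 0.0130 for Csf3 (0.036) in Nfkb1[SS/AA] at 0.5 h, and 0.0357 and 0.0857 for Csf3 with RSKi47 at 0.5 h (0.048) and 2 h (-0.14).

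Leaving out 1 library at a time, Csf1 ran from -0.36 to -0.18 in Map3k8[D270A] at 1 h, 0.13 to 0.27 in Elk1-/-Elk4-/- at 0.5 h, -0.21 to -0.040 in Nfkb1[SS/AA] and 0.049 to 0.22 with PD0325901 at 1 h, and -0.49 to -0.23 with RSKi47 at 2 h. Csf2 at 0.5 h ran from -0.65 to -0.32 in Nfkb1[SS/AA], where the call was lost without WT replicate 7 or 9, and from -0.51 to -0.17 with RSKi47, and Csf3 with RSKi47 at 2 h from -0.19 to -0.10. The cause of these changes was not tested.

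Per-library depth was not known, Csf3 lies where small differences on this scale cannot be turned into copy numbers, and without DMSO libraries given LPS the solvent was not compared at 0.5 or 1 h.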
